A study of Mus musculus with 10 samples.

Results

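The comparison described here is that of 3′RR-deficient with wild-type (wt) B-cells after stimulation with lipopolysaccharide (LPS), over every row of a small RNA count table. It takes 4 of the 10 libraries of the series, 2 per genotype. The table has 6968 rows, from microRNAs to tRNAs, snoRNAs and piRNA clusters, and 3543 of them passed the filter on low counts and were tested. The cells were CD43- splenic B-cells, a fraction in which resting B-cells are enriched because CD43 marks activated B-cells and most other leukocytes. Per the study's methods the mice were on a 129 background, 8 to 12 weeks old and of either sex. Cells of 2 mice were pooled for each library, so a replicate was a pool of animals. All 4 cultures received LPS for 2 days, at 5 µg/ml per the stimulation label and the study's methods, whereas the extract protocol in the labels gives 5 mg/ml. The non-stimulated libraries of the same genotypes (2 each) and the libraries of Eµ-deficient mice, which lack another Igh enhancer, give values set beside the main ones, and the non-stimulated wt and 3′RR-deficient libraries also enter a fit of 8 libraries. In earlier results of these data the non-stimulated replicates differed more from each other, and replicates 2 shared a shift. The non-stimulated libraries were therefore left out of the main fit. The labels give 2 days of culture for the non-stimulated cells as well. The study's methods describe B-cells taken before and after stimulation, so culture time may differ between the conditions. That description is of the total RNA sequencing, and whether non-stimulated and LPS libraries of a genotype came from the same mice is not given for the small RNA libraries. Values without LPS may therefore not be independent of those with LPS. The fit of 8 libraries treated them as independent, and its p-values make no allowance for shared mice.

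The 3′RR, or 3′ regulatory region, is a super-enhancer that lies downstream of the constant genes of the immunoglobulin heavy chain locus (Igh). It is known to drive transcription of these genes in mature B-cells and to be needed for class switch recombination and somatic hypermutation. LPS, a component of bacterial cell walls sensed through Toll-like receptor signalling, makes B-cells divide, switch class and turn into antibody-secreting cells. MicroRNAs are short RNAs cut from hairpin precursors. Each hairpin has a 5p and a 3p arm, and the loaded arm pairs with messenger RNAs mainly through its seed, bases 2 to 8. Small nucleolar RNAs (snoRNAs) guide chemical modification of ribosomal and spliceosomal RNA and are often cut from introns of host genes. Transfer RNAs (tRNAs) leave fragments in small RNA libraries.

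The mature microRNAs on which the results turn are printed below 5′ to 3′ with the seed in capitals. They come from RefSeq (GRCm38), which held a sequence for 1093 of the 1302 mature microRNA rows. The first group shows the microRNA with the largest decrease among the rows of higher abundance, then microRNAs that the naming rule picked as higher.
miR-5121: aGCUUGUGaugagacaucucc
miR-455-3p: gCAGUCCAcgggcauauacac
miR-150-3p: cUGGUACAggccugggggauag
miR-144-5p: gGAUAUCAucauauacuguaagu
miR-203-3p: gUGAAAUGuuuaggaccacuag

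The second group shows members of an X-linked microRNA cluster. The cluster's 10 tested rows all had a positive log2 fold change, and none passed the adjusted threshold. The group is followed by the microRNAs that share the seed of the cluster's member miR-351-5p.
miR-322-5p: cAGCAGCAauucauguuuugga
miR-503-5p: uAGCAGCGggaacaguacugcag
miR-450a-5p: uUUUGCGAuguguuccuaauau
miR-351-5p: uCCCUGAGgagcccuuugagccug
miR-125a-5p: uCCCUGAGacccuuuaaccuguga
miR-125b-5p: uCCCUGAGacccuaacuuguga

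The third group shows the 2 microRNAs of the miR-17~92 family that share a seed and had the lowest log2 fold changes of that family.
miR-19a-3p: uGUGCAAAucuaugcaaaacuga
miR-19b-3p: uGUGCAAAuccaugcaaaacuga

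The 4 libraries held 6054137 and 11247124 counts in wt replicates 1 and 2, and 6056266 and 13859730 in the 3′RR-deficient ones. Values below are CPM, that is counts scaled to library size after TMM normalization of the 4 libraries. The scaling factor of 3′RR-deficient replicate 1 was 0.826, against 1.01 to 1.10 in the other 3. Over the 3543 tested rows replicates of a genotype differed with an SD of 0.75 (log2) in wt and 0.91 in 3′RR-deficient cells, whereas the SD of the difference between the genotype means was 0.52. Divided by the square root of 2, to match a difference of means, the replicate values were 0.53 and 0.65, close to or above the SD of the genotype difference. The half-width of the 95% interval of a log2 fold change had a median of 1.29, a 2.45-fold change. Smaller differences could mostly not be told from none with 2 libraries per genotype, even before adjustment. The interval makes no allowance for the number of rows, and larger differences could also miss the adjusted threshold. In edgeR's quasi-likelihood test over all rows, miR-5121 (8.81-fold lower in 3′RR-deficient libraries) and miR-455-3p (5.62-fold higher) each had an adjusted p of 0.996. Whether the table's libraries carry the deletion could not be checked, because no row lies in the stretch downstream of Igha where the 3′RR is. The nearest row there, the snRNA Gm25622, had 0 counts in all 4 libraries.

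No row passed the threshold between the genotypes. With edgeR's quasi-likelihood test and Benjamini-Hochberg adjustment, 0 of 3543 rows (0%) were called at 0.05, the lowest adjusted value being 0.180. At an unadjusted p under 0.05 there were 50 rows higher in the 3′RR-deficient libraries (1.41%) and 49 lower (1.38%). In 472 rows (13.3%) both 3′RR-deficient libraries lay above both wt libraries, and in 565 rows (15.9%) both lay below. DESeq2's Wald test called 3 rows, a snoRNA row and miR-5121, both lower, and miR-455-3p, higher. All differences below are described with this in view: none passed the adjustment over all rows unless stated.

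**Figure D1:**
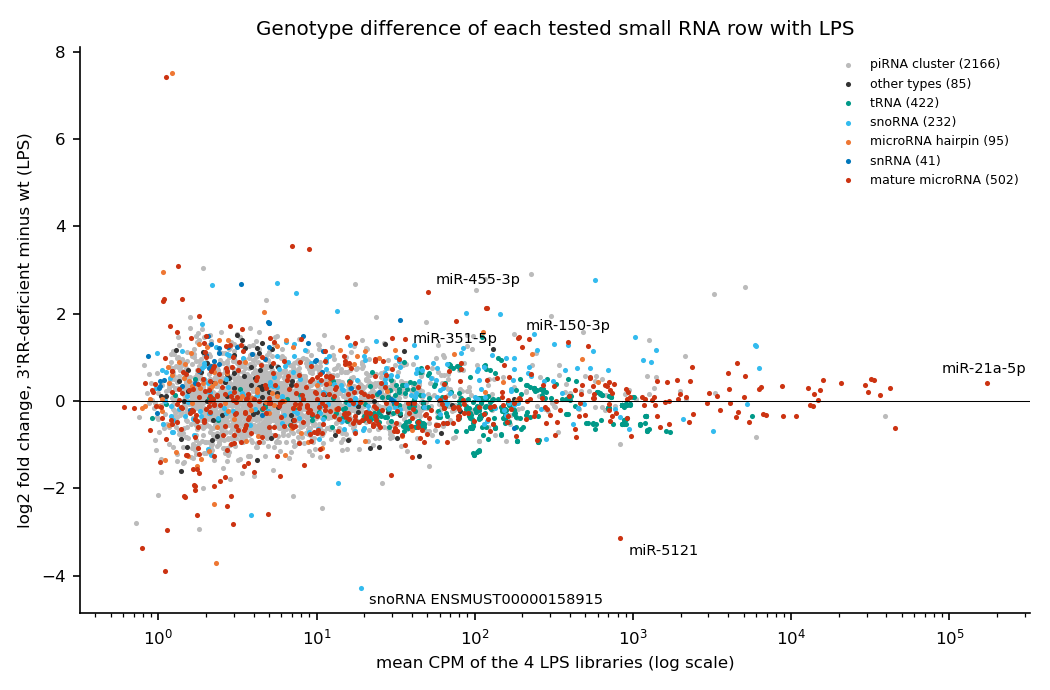
Each point is 1 of the 3543 tested rows, with its mean CPM over the 4 LPS libraries on a log axis and its log2 fold change (3′RR-deficient minus wt) on the linear axis; colours give the type of row and its number of tested rows. The quartiles of all rows are -0.35 and 0.38; miR-5121 at -3.14 and miR-455-3p at 2.49 are marked, several abundant piRNA cluster and snoRNA rows lie as high as miR-455-3p, and the 2 highest points are rows with no count in either wt library.

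The most pronounced difference in an abundant microRNA was that of miR-5121. This annotated microRNA lies on chromosome 7, 45126925 to 45126945 (GRCm38, minus strand), inside the snoRNA gene Snord33, which is itself within the ribosomal protein gene Rpl13a. It begins 2 bases from the 5′ end of Snord33. Levels were 2159 and 816 CPM in wt and 249.6 and 88.5 CPM in 3′RR-deficient libraries. Both 3′RR-deficient libraries lay below both wt libraries, and within each genotype replicate 1 was the higher one. The log2 fold change was -3.14 (SE 0.74, 95% interval -4.80 to -1.48), with an unadjusted p of 0.00194 and an adjusted p of 0.996 in edgeR's quasi-likelihood test over all rows. Without LPS, in libraries that may come from the same mice, levels were 132 and 76.8 CPM in wt and 16.8 and 7.65 CPM without the 3′RR, and the log2 difference was -3.22 (SE 0.88, unadjusted p 0.0056 and adjusted p 1 in edgeR's fit of 8 libraries). Leaving out 1 library moved the LPS value to -4.07 (without 3′RR-deficient replicate 1) or -2.28 (without wt replicate 1). The Eµ-deficient LPS library, which is set against the same wt libraries, held 79.7 CPM. Both arms of miR-150, which lie within 10 kb on the other strand, had positive log2 fold changes, given below.

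Among the rows named as higher, miR-455-3p had the smallest p. It comes from an intron of the collagen gene Col27a1 on chromosome 4 (63256904 to 63256924, plus strand). Its levels were 18.7 and 11.8 CPM in wt and 102 and 69.4 CPM in 3′RR-deficient libraries. The groups stood well apart, and the log2 fold change was 2.49 (SE 0.53, 95% interval 1.30 to 3.68, unadjusted p 0.000978, adjusted p 0.996 in edgeR's test over all rows). Without LPS the levels were 87.2 and 127 CPM in wt and 438.7 and 294.7 CPM without the 3′RR, and the log2 difference was 1.69 (SE 0.58). The Eµ-deficient LPS library held 6.27 CPM. Its other arm, miR-455-5p, was rare, at 4.27 and 0.652 CPM in wt and 5.59 and 2.29 CPM in 3′RR-deficient libraries, and its groups overlapped.

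When mature microRNA counts were summed by seed, which puts together microRNAs that share most predicted targets, 2 of 340 seeds passed (0.588%). They were GCUUGUG, held by miR-5121 alone (log2 fold change -3.20, SE 0.45, adjusted p 7.5e-05), and CAGUCCA, held by miR-455-3p alone (2.46, SE 0.46, adjusted p 0.00273, both from edgeR's quasi-likelihood test over the seeds). As each seed has 1 member, these are tests of the same 2 microRNAs within a smaller table. Neither call held when either 3′RR-deficient library was left out, when the non-stimulated libraries were added to the fit, or with a filter of 10 CPM in 2 libraries: each of these gave 0 calls. With 1 library of a genotype left out, the spread comes from the pair of the other genotype, and the lone library is assumed to vary like it. In the fit over all rows the log2 fold changes stayed large without 3′RR-deficient replicate 1 or 2, at -4.07 and -2.58 for miR-5121 and at 2.19 and 2.74 for miR-455-3p. The call of CAGUCCA was also lost without wt replicate 1, without wt replicate 2 and when a 2-fold change was required, whereas GCUUGUG passed in these 3 cases. Of the 69 seeds with more than 1 member, 1 was higher and 3 were lower at an unadjusted p under 0.05. These 4 (5.8%) were no larger a share than the 24 of all 340 seeds (7.06%). The higher one was CCCUGAG, the seed of miR-351-5p, miR-125a-5p and miR-125b-5p printed above, with summed levels of 35.9 and 28.2 CPM in wt and 88.7 and 44.8 CPM in 3′RR-deficient libraries (log2 fold change 0.98, SE 0.45, adjusted p 0.644 in edgeR's test). Most of that sum came from miR-351-5p.

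miR-351-5p belongs to an X-linked cluster with miR-322-5p, miR-503-5p and miR-450a-5p, a group of microRNA genes that are transcribed together and include relatives of the cell-cycle repressing miR-15/16 family. The table has 13 mature rows within 10 kb of miR-351-5p, and all 10 that were tested had a positive log2 fold change, from 0.12 (miR-450b-5p) to 1.95 (miR-503-3p), with a median of 1.05 against -0.0046 over all rows tested. Since miR-351-5p was picked for groups that do not overlap, it is left out of the next counts. Of the other 9 rows 5 had both 3′RR-deficient libraries above both wt libraries, against 13.3% of all rows, and 2 were higher at an unadjusted p under 0.05, against 1.41% of all rows. Among mature microRNAs the share under 0.05 in either direction was 8.17%. miR-503-5p stood at 17.9 and 14.5 CPM in wt and at 40.0 and 47.4 CPM in 3′RR-deficient libraries (log2 fold change 1.44, SE 0.48). For miR-450a-5p the values were 9.19 and 7.49 CPM in wt and 27.2 and 18.7 CPM in 3′RR-deficient libraries (1.46, SE 0.50). miR-351-5p was measured at 23.8 and 15.5 CPM in wt and at 66.7 and 38.1 CPM in 3′RR-deficient libraries (1.42, SE 0.52). The most abundant member, miR-322-3p, was at 49.1 and 24.5 CPM in wt and at 87.3 and 40.0 CPM in 3′RR-deficient libraries, so that its groups overlapped. Without LPS all 10 were positive, with log2 differences between 0.61 and 1.51 and SEs between 0.61 (miR-351-5p) and 1.75 (miR-542-3p). For miR-542-3p the levels without LPS were 25.4 and 1.31 CPM in wt and 47.4 and 0 CPM in 3′RR-deficient libraries. The 10 rows share a precursor and their libraries, so they are not independent of each other. Their adjusted p was 0.996 throughout in edgeR's test.

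**Figure D2:**
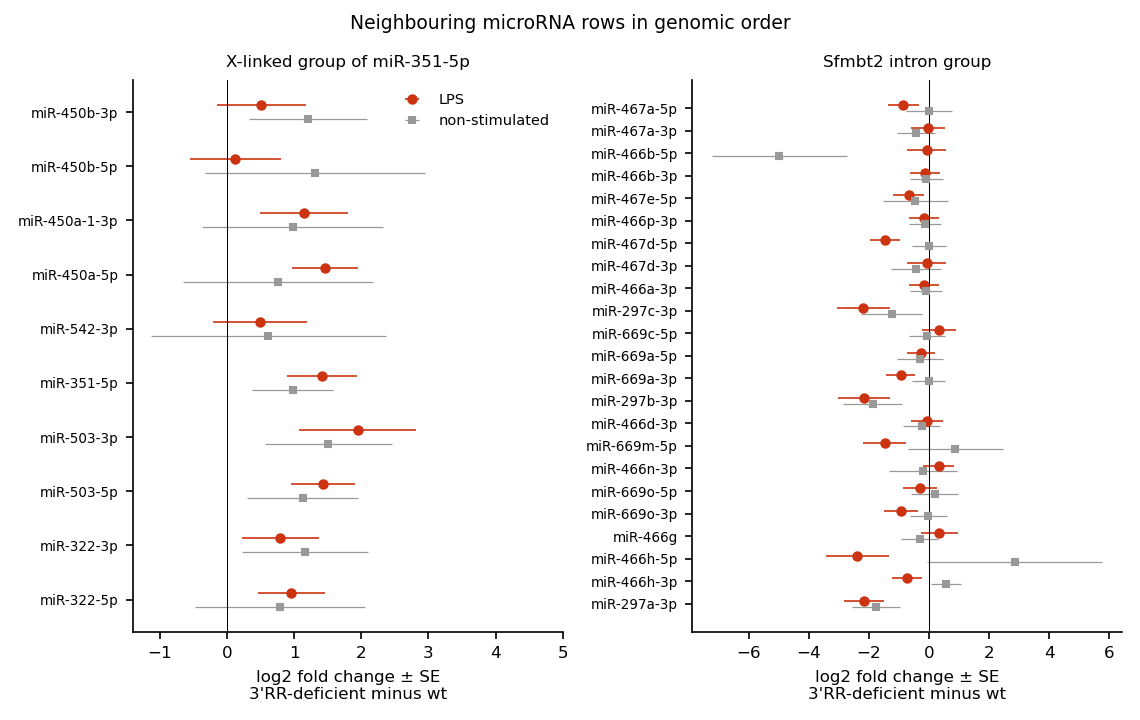
Log2 fold change (3′RR-deficient minus wt) with its SE for the tested mature microRNA rows within 10 kb of miR-351-5p (left) and of miR-669a-3p (right), in genomic order; red points are the LPS libraries, grey squares the non-stimulated libraries. All 10 X-linked rows lie right of 0 in both conditions; of the 23 rows at Sfmbt2, 20 lie left of 0 with LPS.

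The opposite was seen in the large cluster within an intron of Sfmbt2 on chromosome 2, an imprinted gene whose intron carries many copies of the related miR-297, miR-466, miR-467 and miR-669 families. The table has 34 mature rows within 10 kb of miR-669a-3p. Besides miR-669a-3p, which was picked for its lower values, 22 were tested, of which 19 had a negative log2 fold change and 11 had both 3′RR-deficient libraries below both wt libraries, against 15.9% of all rows. The median with miR-669a-3p was -0.30. Levels of miR-669a-3p, the member named by rule, were 77.6 and 47.5 CPM in wt and 35.2 and 29.8 CPM in 3′RR-deficient libraries (log2 fold change -0.95, SE 0.49, unadjusted p 0.0856, adjusted p 0.996 in edgeR's test). miR-467d-5p was at 14.3 and 10.4 CPM in wt and at 3.60 and 5.18 CPM in 3′RR-deficient libraries (-1.47, SE 0.51). The most abundant row of the cluster, miR-466b-3p, had overlapping groups, at 94.8 and 129 CPM in wt and 121 and 81.7 CPM in 3′RR-deficient libraries. Without LPS the log2 difference of miR-669a-3p was -0.01, and 5 of all 23 rows were positive. Copies of these families are near-identical, and the counting of reads that match several copies is not given in the sources used here, so the rows are uncertain one by one.

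Among the other microRNAs named by rule, miR-150-3p is the minor arm of the hairpin that gives miR-150-5p, a microRNA of mature lymphocytes known to restrain the factor Myb. The 3p arm was at 116 and 84.0 CPM in wt and at 366 and 179 CPM in 3′RR-deficient libraries (chromosome 7, 45121798 to 45121819, plus strand). Its groups did not overlap, with a log2 fold change of 1.44 (SE 0.55, unadjusted p 0.0268, adjusted p 0.996 in edgeR's test). The 5p arm, at 7432 and 3827 CPM in wt and 9131 and 4538 CPM in 3′RR-deficient libraries, had overlapping groups and a log2 fold change of 0.28 (SE 0.62). The difference between the arms was not tested. Without 3′RR-deficient replicate 1 the value of miR-150-3p was 0.84. Without LPS both arms had small differences, 0.32 for the 3p and 0.31 for the 5p arm.

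miR-203-3p, best known from epithelium, is the microRNA of the named rows that lies closest to Igh, 1.12 Mb from its constant region on chromosome 12 (112130927 to 112130948, plus strand). It was at 130.3 and 105 CPM in wt and at 339 and 216 CPM in 3′RR-deficient libraries. Both 3′RR-deficient libraries were above both wt libraries (log2 fold change 1.23, SE 0.51, unadjusted p 0.0371, adjusted p 0.996 in edgeR's test). Without LPS its log2 difference was 1.22 (SE 1.19), with values of 664.9 and 93.8 CPM in wt and 1869 and 136 CPM in 3′RR-deficient cells, where the groups overlapped.

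Rows around Igh lay on both sides of 0. The Igh constant region spans chromosome 12, 113254830 to 113422730, and 146 rows of any type lie within 10 Mb of it, of which 26 were tested. Of these, 12 were higher and 14 lower, with a median log2 fold change of -0.08, and with total count scaling 7 were higher and 19 lower. Over the alternatives tried, the median ranged from -0.57 (mature microRNAs with a GC correction and replicate block) to 0.13 (filter of 10 CPM in 2 libraries). With 1 library left out it was -0.51 without 3′RR-deficient replicate 1, -0.37 without 3′RR-deficient replicate 2, -0.31 without wt replicate 1 and -0.05 without wt replicate 2. In 2 rows both 3′RR-deficient libraries were above and in 6 below the wt libraries, against 13.3% and 15.9% of all rows. At an unadjusted p under 0.05 in edgeR's test 2 were higher and 3 lower, against 1.41% and 1.38% of all rows. The 2 higher ones were miR-203-3p, named above by rule, and piRNAclusterDB_1548. The lowest values belonged to rare rows. miR-369-3p, of the imprinted Dlk1-Dio3 microRNA cluster, had 2.13 and 1.87 CPM in wt and 0.400 and 0 CPM in 3′RR-deficient libraries. Scarna13 came next (-2.60), at 8.70 and 4.15 CPM in wt and 2.40 and 0.131 CPM in 3′RR-deficient libraries. In the cluster of miR-369-3p, miR-541-5p (-1.95) and miR-379-5p (-1.92) were also negative, and miR-411-5p was positive (0.24). miR-379-5p had 1.80 and 3.58 CPM in wt and 0.400 and 0.918 CPM in 3′RR-deficient libraries. The highest log2 fold change was 2.55 for piRNAclusterDB_1548, an interval that spans Mir379 and Mir411 of the same cluster. It came from 1 library: the 3′RR-deficient values were 335 and 14.6 CPM, and the wt values were 42.8 and 16.8 CPM. The most abundant row near Igh, miR-342-3p, had overlapping groups, at 1699.8 and 1099.8 CPM in wt and 2747 and 1027 CPM in 3′RR-deficient libraries.

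**Figure D3:**
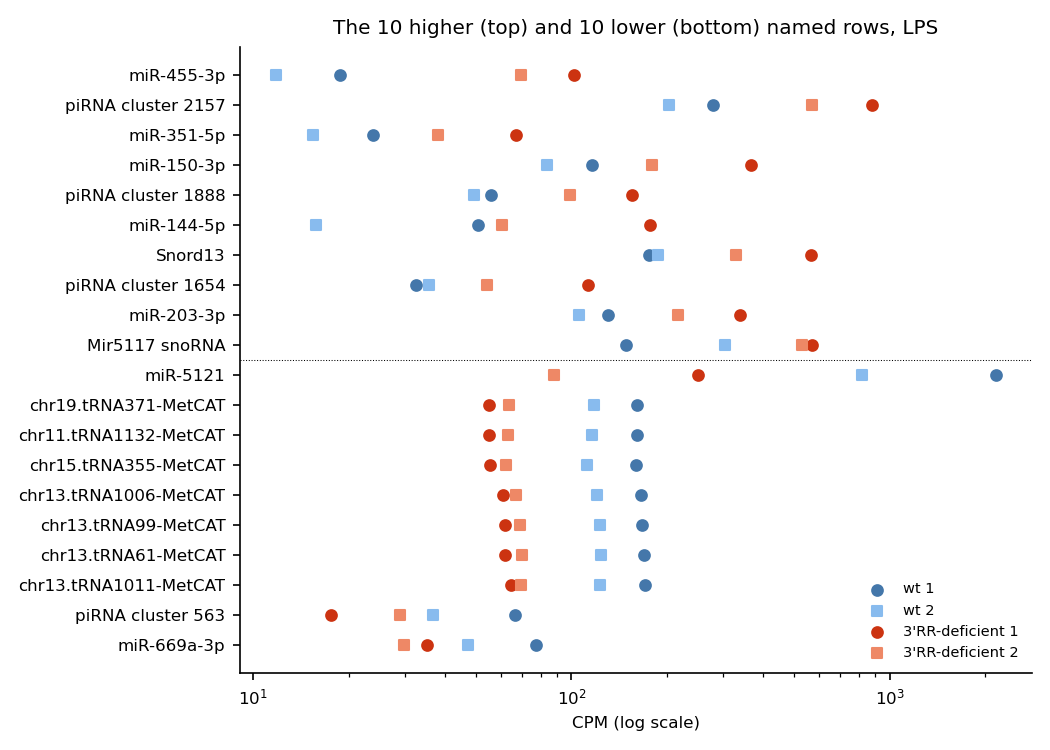
CPM on a log axis of the 20 rows named by rule, 10 higher (above the dotted line) and 10 lower (below it) in the 3′RR-deficient LPS libraries; blue symbols are the wt and red symbols the 3′RR-deficient libraries, circles replicate 1 and squares replicate 2. The rows were chosen so that the colours do not overlap; the widest gaps are those of miR-455-3p and miR-5121, and the 7 tRNA-Met rows lie almost on top of each other.

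The microRNAs listed for lymphocytes were abundant in all 4 libraries, which does not by itself show the cell type. All 7 had overlapping groups, as most rows of the table did (13.3% lay apart as higher and 15.9% as lower), with log2 fold changes between -0.61 and 0.59, of which 6 were positive with TMM and 4 with total count scaling. miR-21a-5p, a microRNA induced by activation and the most abundant row of the table, was at 166114 and 131764 CPM in wt and at 156702 and 239047 CPM in 3′RR-deficient libraries (0.41, SE 0.64). miR-155-5p, which is induced by B-cell activation, was at 21597 and 35015 CPM in wt and at 44329 and 20956 CPM in 3′RR-deficient libraries (0.21, SE 0.64). miR-146a-5p, a feedback repressor of Toll-like receptor signalling, was at 70566 and 39128 CPM in wt and at 40776 and 31318 CPM in 3′RR-deficient libraries (-0.61, SE 0.62). miR-181a-5p, a regulator of antigen receptor signalling, had 5181 and 2949 CPM in wt and 8235 and 3961 CPM in 3′RR-deficient libraries (0.59, SE 0.61). Both arms of the blood-cell microRNA miR-142a had small differences, 0.15 (SE 0.58) for the 5p and 0.11 (SE 0.62) for the 3p arm, and miR-150-5p is given above.

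Of the 8 listed microRNAs tied to plasma cell differentiation or B-cell activation, 6 were positive and 2 negative with a median of 0.45. Their range went from -0.44 for miR-125b-5p to 0.56 for miR-212-3p. Only miR-9-5p (1 of 8, against 13.3% of all rows), known to repress the plasma cell factor Blimp-1, had groups that did not overlap, at 101 and 124 CPM in wt and 172 and 155 CPM in 3′RR-deficient libraries. miR-148a-3p, the most abundant of the 8 and a promoter of plasma cell differentiation, was at 14193 and 13022 CPM in wt and at 11626 and 14004 CPM in 3′RR-deficient libraries, with overlapping groups.

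The miR-17~92 family, which drives lymphocyte proliferation downstream of Myc, was mostly lower. Of its 13 members, counting the paralogous clusters, 11 had a negative log2 fold change and 10 had both 3′RR-deficient libraries below both wt libraries, against 15.9% of all rows. The median was -0.35, and none had an unadjusted p under 0.05. The lowest log2 fold changes were those of miR-19a-3p, at 715 and 404 CPM in wt and 324 and 311 CPM in 3′RR-deficient libraries (-0.82, SE 0.52), and miR-19b-3p, at 1570.2 and 904 CPM in wt and 731 and 684 CPM in 3′RR-deficient libraries (-0.81, SE 0.53). Both share the seed GUGCAAA, whose sum had a log2 fold change of -0.79 (SE 0.37, unadjusted p 0.0421, adjusted p 0.681 in edgeR's test). The exceptions were the abundant miR-92a-3p (0.29) and miR-25-3p (0.25), whose groups overlapped and whose 3′RR-deficient replicate 1 was the highest of the 4 libraries. Reads of paralogues could be shared between these rows, and members of a cluster are cut from 1 transcript. Leaving out 1 library at a time kept the family's median between -0.50 and -0.30. Without LPS 12 of the 13 members had a positive log2 difference and 1, miR-18b-5p, a negative one, with a range of -0.40 to 0.68. Each SE exceeded the size of its difference, as for miR-20b-5p (0.68, SE 1.06), so these signs were uncertain. The non-stimulated replicates lay far apart, for miR-19a-3p at 239 and 13.1 CPM in wt and 315 and 7.17 CPM in 3′RR-deficient libraries.

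The let-7 family, which counters proliferation in many tissues, had a positive log2 fold change in 9 of 9 members, with a median of 0.52, but the libraries of both genotypes interleaved. let-7a-5p was at 13139.6 and 39216 CPM in wt and at 48009 and 26880.3 CPM in 3′RR-deficient libraries, and wt replicate 1 was the lowest library for all 9 members. The median moved with each library left out. It was 0.06 without wt replicate 1, 0.06 without 3′RR-deficient replicate 1, 0.87 without 3′RR-deficient replicate 2 and 1.51 without wt replicate 2. Only let-7b-5p (1 of 9, against 13.3% of all rows) had groups that did not overlap, at 142 and 294 CPM in wt and 783 and 327 CPM in 3′RR-deficient libraries (log2 fold change 1.35, SE 0.62, unadjusted p 0.0563, adjusted p 0.996 in edgeR's test).

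**Figure D4:**
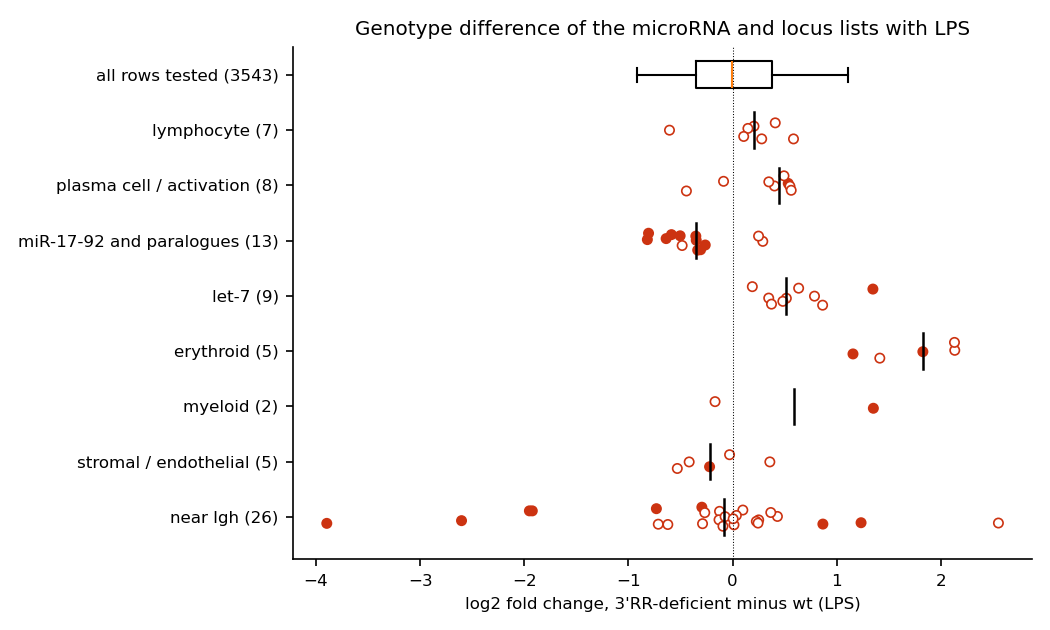
Log2 fold change (3′RR-deficient minus wt, LPS) of the tested members of 8 lists, with the number of members in brackets; filled points are members whose libraries do not overlap between the genotypes, black bars are medians, and the box at the top shows the quartiles of all 3543 rows with whiskers at their 5th and 95th percentiles. The erythroid list lies highest with a median of 1.83, and 10 of the 13 miR-17~92 members are filled and left of 0.

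MicroRNAs of other blood and tissue cells were also followed, because a CD43- fraction can hold residual cells. All 5 erythroid microRNAs had positive log2 fold changes, with a median of 1.83. In 2 of them, both arms of miR-144, the groups did not overlap, against 13.3% of all rows. An unadjusted p under 0.05 was reached by 4, against 1.41% of all rows and 20 of 502 mature microRNAs. These 4 include miR-144-5p, picked from the same values, and miR-486a-5p and miR-486b-5p, which may count the same reads. The summed level of all 5 was 383 and 114 CPM in wt and 1379 and 300.3 CPM in 3′RR-deficient libraries, so that wt replicate 1 exceeded 3′RR-deficient replicate 2. miR-144-5p, one of the rows named by rule and a partner of miR-451a in red cell maturation, belongs to this list. It was at 51.0 and 15.7 CPM in wt and at 176 and 60.4 CPM in 3′RR-deficient libraries (log2 fold change 1.83, SE 0.72, unadjusted p 0.0302, adjusted p 0.996 in edgeR's test). Its value was 0.86 without 3′RR-deficient replicate 1, 2.91 without wt replicate 1 and 1.21 without wt replicate 2. miR-451a, the defining member, was at 195 and 45.1 CPM in wt and at 509.7 and 129.5 CPM in 3′RR-deficient libraries, and miR-486a-5p and miR-486b-5p had nearly equal counts. With 1 library left out, the median of the list was 0.12 (without 3′RR-deficient replicate 1), 1.21 (without wt replicate 2), 2.40 (without 3′RR-deficient replicate 2) and 2.91 (without wt replicate 1). In bulk RNA more cells of a type and more RNA per cell cannot be told apart. The 2 myeloid arms went apart, with miR-223-3p at -0.17 and the rare miR-223-5p at 1.35. Of the 7 stromal and endothelial microRNAs, 5 were tested, with 4 negative and 1 positive and a median of -0.22, which was 0.14 without wt replicate 1 and -0.54 without 3′RR-deficient replicate 1. Summed levels of the stromal list were 487 and 493 CPM in wt and 856 and 329 CPM in 3′RR-deficient libraries. The part of these cells in the other results was not tested.

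Mature microRNAs made up 68.3% and 74.0% of the wt counts, against 70.9% and 75.6% of the 3′RR-deficient ones. tRNA rows took 14.0% and 11.1% against 8.48% and 11.5%, piRNA clusters 12.5% and 10.5% against 12.8% and 8.89%, and snoRNA rows 4.69% and 3.98% against 7.31% and 3.48%. The groups overlapped in each of these 4 types. They did not overlap for microRNA hairpins, which took 0.212% and 0.233% of the wt counts against 0.320% and 0.246% of those without the 3′RR. An exact two-sided permutation test of 2 against 2 libraries cannot give a p below 0.33, so it can show neither a difference in these shares nor that they are alike.

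**Figure D5:**
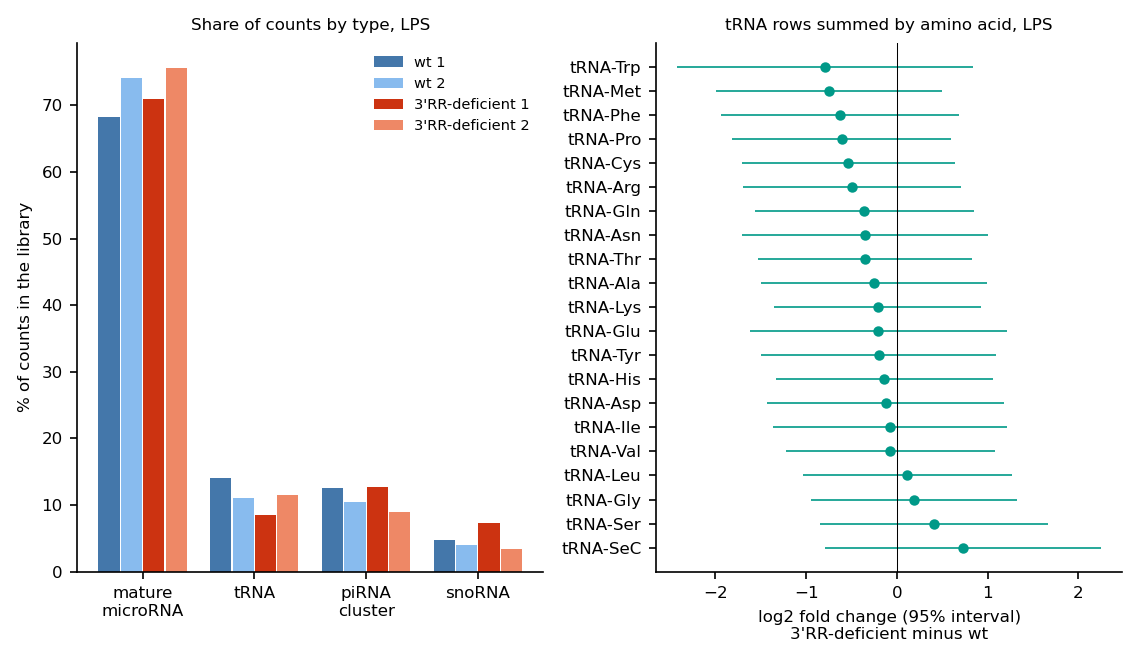
Left, percent of the counts of each LPS library in the 4 largest types of row, with bars for wt replicates 1 and 2 (blue) and 3′RR-deficient replicates 1 and 2 (red). Right, log2 fold change with its 95% interval for tRNA rows summed by amino acid; every interval includes 0, and 17 of the 21 sums lie left of it.

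tRNA rows leaned lower in the 3′RR-deficient libraries. Of 422 tested rows 291 had a negative log2 fold change, with a median of -0.16, and in 108 (25.6%) both 3′RR-deficient libraries lay below both wt libraries, against 15.9% of all rows. Since copies of a tRNA gene may share reads, the rows were also summed by amino acid, and none of the 3142 rows of that table passed (0%). The summed tRNA-Met was at 2868 and 1832 CPM in wt and at 1621 and 1228 CPM in 3′RR-deficient libraries (log2 fold change -0.75, SE 0.55, adjusted p 0.998 in edgeR's test). tRNA-Pro, among the more abundant sums, was at 25595 and 14232 CPM in wt and at 12468 and 14076 CPM in 3′RR-deficient libraries (-0.61, SE 0.53). Together with tRNA-Cys, tRNA-Arg, tRNA-Gln and tRNA-Thr, these 6 of the 21 sums had groups that did not overlap, each lower, against 14.7% of the 3142 rows of the summed table. tRNA-SeC, the carrier of selenocysteine, had the highest value of the 21 sums at 0.73 (SE 0.67), and tRNA-Ser, tRNA-Gly and tRNA-Leu were also positive.

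The 7 rows named by rule, on chromosomes 11, 13, 15 and 19, differed by 6.8% to 17.5% in a library, so they may count the same reads. In wt replicates 1 and 2 they lay at 159 to 169.96 and 112 to 124 CPM, and in 3′RR-deficient replicates at 54.9 to 64.5 and 62.4 to 69.9 CPM. Their log2 fold changes were -1.24 to -1.13, with unadjusted p between 0.0305 and 0.0434. Another 9 tRNA-Met rows had overlapping groups, with log2 fold changes from -0.40 to -0.26. The lowest of these, chr3.tRNA792-MetCAT, was at 159 and 81.9 CPM in wt and at 120 and 62.9 CPM in 3′RR-deficient libraries (-0.40, SE 0.56). The rows chr8.tRNA788-MetCAT and chr15.tRNA913-MetCAT lay between, at -0.77 and -0.75. The difference between these sets was not tested. Without LPS the named rows differed by -0.05 to 0.27 between the genotypes, with SEs between 1.09 and 1.29.

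snoRNA rows leaned the other way. Of 232 tested, 149 were positive (126 with total count scaling) with a median log2 fold change of 0.25, and in 40 (17.2%) both 3′RR-deficient libraries lay above both wt libraries, against 13.3% of all rows. The share of counts of the snoRNA rows was highest in 3′RR-deficient replicate 1, and the most abundant row, Snord104, was at 6027 and 3280 CPM in wt and 12881 and 2845 CPM in 3′RR-deficient libraries. Snord13 (ENSMUST00000157627), a guide for ribosomal RNA acetylation, was named by rule, at 175 and 188 CPM in wt and 566 and 329.98 CPM in 3′RR-deficient libraries (log2 fold change 1.30, SE 0.52, unadjusted p 0.0324, adjusted p 0.996 in edgeR's test). The other snoRNA named by rule, ENSMUST00000083226 or Mir5117, lies in Gas5, a host gene of many snoRNAs, and was at 149 and 305 CPM in wt and 571 and 531 CPM in 3′RR-deficient libraries (1.28, SE 0.54, and 1.89 without wt replicate 2). The other 8 snoRNA rows of Gas5 in the table had overlapping groups and log2 fold changes between -0.42 and 0.46.

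Several abundant rows had folds as large as that of miR-455-3p but owed them to 3′RR-deficient replicate 1, and they are given here after their values were seen. The Cajal body RNA Scarna3a (ENSMUST00000158911) was at 235 and 56.5 CPM in wt and at 1955 and 53.8 CPM in 3′RR-deficient libraries (log2 fold change 2.78, SE 1.29). piRNAclusterDB_143 was at 2275 and 594.5 CPM in wt and at 16964 and 673 CPM in 3′RR-deficient libraries (2.62, SE 1.22). In both, replicate 2 of the genotypes lay close together and the groups overlapped.

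The smallest p of the whole comparison belonged to a snoRNA row, ENSMUST00000158915 on chromosome 19 (17825520 to 17825627, plus strand), within the span of Pcsk5, which is on the other strand. It fell under the abundance that the naming rule asks for and is given because its p was seen to be smallest. It had 257 and 372 counts in wt and 13 and 20 counts in 3′RR-deficient libraries. In CPM these are 42.2 and 30.3 against 2.60 and 1.31, a log2 fold change of -4.27 (SE 0.61, unadjusted p 5.07e-05, adjusted p 0.180 in edgeR's test). Without LPS it had 203 and 191 counts in wt and 21 and 9 counts in 3′RR-deficient libraries, a log2 difference of -3.60 (SE 0.68). The Eµ-deficient libraries held 326 counts without and 582 with LPS. The row has no entry in GENCODE M21, so its gene name is not given.

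Other rare rows with small p, also chosen after their values were seen, were piRNAclusterDB_2315, miR-1948-3p, the Mir671 hairpin and miR-2137. piRNAclusterDB_2315 was at 13.9 and 22.6 CPM in wt and at 3.00 and 3.67 CPM in 3′RR-deficient libraries (log2 fold change -2.44, SE 0.53, unadjusted p 0.00115, adjusted p 0.996 in edgeR's test), and without LPS its log2 difference was -1.82. miR-1948-3p had 0 counts in both wt libraries and 14 and 26 counts in the 3′RR-deficient ones, at least 6.11-fold higher against a floor of 3 counts per library. The Mir671 hairpin (ENSMUST00000102432) had 0 counts in both wt libraries and 18 and 20 counts in the 3′RR-deficient ones, at least 6.66-fold higher. Without LPS this hairpin had 6 and 0 counts in wt and 5 and 0 counts in 3′RR-deficient libraries. The Eµ-deficient LPS library held 15 counts of it. For miR-2137 1 library decided the value, with 1.48 and 1.38 CPM in wt and 29.4 and 3.47 CPM in 3′RR-deficient libraries.

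Of the 41 tested snRNA rows 37 were positive, with a median log2 fold change of 0.91, but only 5 (12.2%) had both 3′RR-deficient libraries above both wt libraries, against 13.3% of all rows. Many of these rows are copies of the same spliceosomal RNA and may share reads. The most abundant, Gm22710, went the other way, at 271 and 160 CPM in wt and 154 and 126 CPM in 3′RR-deficient libraries (log2 fold change -0.62, SE 0.51). Of the 35 tested ribosomal RNA rows 25 were positive, 7 (20%) had both 3′RR-deficient libraries above both wt libraries, against 13.3% of all rows, 2 (5.71%) had both below, against 15.9%, and none had an unadjusted p under 0.05. The ribozyme RNA Rmrp had overlapping groups, at 241 and 110 CPM in wt and 257 and 104 CPM in 3′RR-deficient libraries.

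piRNA clusters are genome intervals taken from a database of germ-line piRNA. They made up 2166 of the 3543 tested rows, 1106 positive and 1060 negative with TMM and 919 positive and 1247 negative with total count scaling. The clusters named by rule cover protein-coding genes in 3 of 4 cases. piRNAclusterDB_2157, over the ribosomal protein gene Rpl41 and Zc3h10 on chromosome 10, was at 279 and 203 CPM in wt and 881 and 570.2 CPM in 3′RR-deficient libraries (log2 fold change 1.59, SE 0.53, unadjusted p 0.0141, adjusted p 0.996 in edgeR's test). piRNAclusterDB_1888, over the cyclin gene Ccne2 and the p53 target Trp53inp1, was at 55.9 and 49.5 CPM in wt and 155 and 98.8 CPM in 3′RR-deficient libraries (1.27, SE 0.50). piRNAclusterDB_1654, over Ago2, which encodes the slicing Argonaute protein, and Chrac1, was at 32.5 and 35.8 CPM in wt and 113 and 54.4 CPM in 3′RR-deficient libraries (1.29, SE 0.53, and 0.67 without 3′RR-deficient replicate 1). piRNAclusterDB_563 on chromosome 17, with no annotated gene, was at 66.6 and 36.6 CPM in wt and 17.6 and 29.0 CPM in 3′RR-deficient libraries (-1.14, SE 0.53). The most abundant cluster, piRNAclusterDB_2182, covers the snoRNA host gene Snhg1 and had overlapping groups.

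The genotype difference was not shown to depend on LPS. In a fit of the 8 wt and 3′RR-deficient libraries, the difference between the genotype effects with and without LPS gave 0 calls among 3987 rows (0%), and 39 rows had an unadjusted p under 0.05. DESeq2's Wald test also gave 0. Of the 50 rows higher with LPS at an unadjusted p under 0.05, 34 (68%) had a positive difference without LPS, against 46.3% of all rows. Of the 49 lower rows, 29 (59.2%) had a negative one, against 53.4% of all rows. These shares are descriptions without a test, since rows of a cluster move together.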

How the data were processed

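The authors deposited raw read counts per small RNA row and library, without normalization. The labels name the NextFlex kit (17 PCR cycles, 75 nt reads), and the submitters' processing notes name cutadapt 1.2.1, Bowtie2 and mm10. The counting program, the use of strand and the handling of reads that match several rows are not given in the sources used here. The table has 1 value column for each of the 10 libraries.

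Counts of all 6968 rows were tested with edgeR 4.0.16 in R 4.3.3 (TMM, filterByExpr by group, quasi-likelihood F-test, two-sided, Benjamini-Hochberg adjustment, threshold 0.05) on the 4 LPS libraries, 2 per genotype. tRNA rows summed by amino acid and mature microRNAs summed by seed were tested in the same way, and the difference of the genotype effects in 8 libraries. DESeq2 1.42.0 was an alternative. Other alternatives were scaling, filters, a replicate block, a GC correction, a test against a 2-fold change and the omission of each library. The scripts were tested on simulated data. P-values measure the spread between pools of mice; intervals cover this spread only.

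Named were the 10 higher and 10 lower rows of smallest p whose mean reached 50 CPM in 1 genotype and no overlap between groups, the most abundant row per type, and list members. The members of 1 further list are not reported here as a group. Members and lists were chosen with earlier results of these data known. Gene names came from GENCODE M21, which holds 2589 of the 2845 Ensembl identifiers, and sequences from RefSeq (GRCm38).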

Additional observations from a re-analysis of the deposited data

How the results depend on the processing

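Over all rows the count of calls was 0 in the reported fit and also with 8 libraries, DESeq2 size factors, total count scaling, the 10 CPM filter, a required 2-fold change and each restriction to microRNAs. It was 21 with no filter, 3 with the DESeq2 Wald test, 3 with the replicate block, 12 with the GC correction and replicate block on mature microRNAs, and 0 to 3 when 1 library was left out. Without 3′RR-deficient replicate 1 the 3 calls were ENSMUST00000158915, Scarna13 and miR-5121, and without 3′RR-deficient replicate 2 the 2 calls were miR-2137 and piRNAclusterDB_630. The replicate numbers share only a name in the labels: the replicate differences of both genotypes correlated with r = 0.41 over 3543 rows, and with 2 pairs this does not establish a pairing. With the block ENSMUST00000158915 (adjusted p 0.00116), miR-5121 (0.00715) and miR-455-3p (0.027) passed in edgeR's test. The count over seeds was 2 in the reported fit, 0 with 8 libraries, 4 with total count scaling, 7 with no filter, 0 with the 10 CPM filter, 6 with the DESeq2 Wald test, 10 with the replicate block, 1 with a required 2-fold change and 0 to 2 when 1 library was left out, with 0 without either 3′RR-deficient library and 1 without wt replicate 2.

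Total count scaling moved the median log2 fold change of all rows from -0.0046 to -0.12. The snoRNA median went from 0.25 to 0.09. Under it the log2 fold change of Rmrp (ENSMUST00000157463) turned to -0.15, that of n-R5-8s1 (ENSMUST00000083988) to -0.11, and those of miR-155-5p and miR-142a-5p to -0.0065 and -0.0024. With 8 libraries Rmrp was at -0.00066 and n-R5-8s1 at -0.041. With the replicate block miR-142a-3p was at -0.079, and at -0.12 with the GC correction as well. When 1 library was left out, the log2 fold change ranged from -0.54 to 1.00 for ENSMUST00000175257 (Mir5099), -0.75 to 0.72 for ENSMUST00000157463 (Rmrp), -0.46 to 0.71 for ENSMUST00000083988 (n-R5-8s1), -0.17 to 1.40 for ENSMUST00000127764 (Gm12238), -0.71 to 1.46 for ENSMUST00000083192 (Snord104), -1.16 to 0.16 for chr5.tRNA1318-AlaTGC, -0.034 to 1.05 for miR-181a-5p, -0.31 to 0.83 for miR-150-5p, -0.43 to 0.64 for miR-155-5p, -0.011 to 0.28 for miR-142a-5p, -1.07 to 0.13 for piRNAclusterDB_2182, -0.83 to 0.67 for miR-142a-3p and -0.11 to 1.38 for ENSMUST00000142709 (AI662270). The cause of these changes was not tested.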
